A study of Ovis aries with 15 samples.

Results

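NR5A1, STAR, CHGA, CHGB and TH are genes of the adrenal gland, which lies beside the perirenal fat that was profiled here. They were chosen by gene name in the promoter tables of 3 histone marks, and all 5 were found among the 18465 genes that at least 1 table lists. Chromatin was taken from the fat around the kidney of wild type purebred merino sheep, from fetuses at 132 ± 1 days after conception (term is 150 days) and from lambs. The labels give the lambs' age as 80 days in one field and as 89 ± 7 days in another. Each stage gave 2 animals for H3K27ac and for H3K27me3. H3K4me3 was profiled in the same animals and in a 3rd lamb. The labels state that no treatment was given, but every lamb title carries the ending VEH, which no fetal title has, so stage and the meaning of this tag cannot be told apart. The tissue is bulk, so a mark carried by few cells and a mark carried weakly by many cells cannot be told apart.

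NR5A1 encodes steroidogenic factor 1, the nuclear receptor that switches on the genes of steroid synthesis in the adrenal cortex and gonads. STAR encodes the protein that carries cholesterol into the mitochondrion, the rate-limiting step of acute steroid production. The medulla of the same gland consists of chromaffin cells, which come from the neural crest: TH encodes tyrosine hydroxylase, the rate-limiting enzyme of catecholamine synthesis, and CHGA and CHGB encode chromogranins, acidic proteins of the secretory granules. TH is also made by the sympathetic nerves that run through fat. H3K27ac is found at active promoters and enhancers, H3K4me3 at active or poised promoters, and H3K27me3 at genes held silent by Polycomb complexes. A promoter that carries H3K4me3 and H3K27me3 together is called bivalent, although in bulk tissue the marks may sit in different cells.

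Most of the 5 promoters were listed for the silencing mark and few for the acetyl mark. NR5A1 was in all 3 tables. CHGA and CHGB were in the H3K27me3 and H3K4me3 tables, TH was in the H3K27me3 table alone, and STAR was in the H3K27ac table alone. Thus 2 of the 5 genes were listed for H3K27ac, 4 for H3K27me3 and 3 for H3K4me3. Of all 18465 listed genes, 71.6% were in the H3K27ac table, 34.3% in the H3K27me3 table and 70% in the H3K4me3 table. The combination of NR5A1 was shared by 10.3% of listed genes, that of CHGA and CHGB by 8.74%, that of TH by 13.1% and that of STAR by 14.8%. In each table every promoter reached a deposited value of at least 50.18 (H3K27ac), 51.46 (H3K27me3) or 50.67 (H3K4me3) in some library. A gene outside a table is therefore called not listed, which does not mean that the mark was measured at 0.

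**Figure D1:**
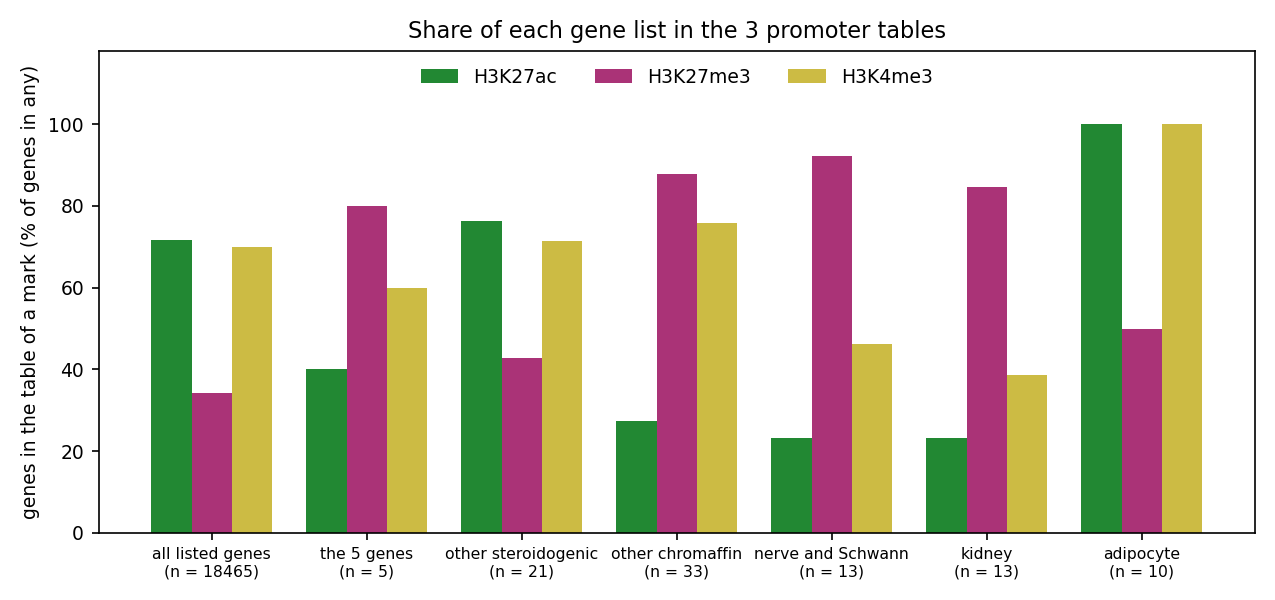
Share of genes found in the promoter table of each mark (bars, percent of the genes found in any table), for all listed genes, for the 5 genes and for lists of related genes and of other cell types. Of the 33 other chromaffin genes found, 87.9% were in the H3K27me3 table and 27.3% in the H3K27ac table. The nerve and Schwann list (92.3% and 23.1%) and the kidney list (84.6% and 23.1%) had similar shares. The other steroidogenic genes had 42.9% and 76.2%. All 10 adipocyte genes were in the H3K27ac table, and 50% of them were in the H3K27me3 table.

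Values below are scaled promoter values: the deposited value of a library divided by that library's size factor, so that libraries of 1 mark can be compared. Differences between stages are given as lamb minus fetus of log2(value + 1), tested with limma across the whole table, and called at a Benjamini-Hochberg adjusted p under 0.05. Means are given ± SD with n = 2 per stage, and n = 3 for H3K4me3 in lambs. Nothing in the labels says more of the replicates than that they are separate animals. Reads in peak regions ran from 34871674 to 44096535 per H3K27ac library and from 7233767 to 10645917 per H3K27me3 library. The H3K4me3 libraries of lambs 2 and 3 were the shallowest of that mark, with 13090548 and 12482468 reads against 37544047 to 58333449 in the other libraries. Sequencing used the Illumina GA11X or HiSeq, and no label at hand ties a library to either instrument.

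H3K27ac at NR5A1 was among the lowest in its table, which lists this promoter only through its lamb values. The stage difference at NR5A1 is therefore a description, and its p is no independent evidence. The scaled values were 29.2 and 25.5 in fetuses 1 and 2, and 65.0 and 74.3 in lambs 1 and 2. Both lambs lay above both fetuses. Behind these values stood 63 and 45 reads in fetuses (95% Poisson intervals 48.4 to 80.6 and 32.8 to 60.2) and 153 and 142 reads in lambs (130 to 179 and 120 to 167). These intervals cover counting error only. The mean went from 27.3 ± 2.62 to 69.6 ± 6.59, a log2 change of 1.32 (SE 0.36, 95% interval 0.57 to 2.07, limma adjusted p = 0.0112). In the authors' deposited table the signed fold change was 2.532 with an FDR-corrected p of 7.77e-05.

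The level stayed near the floor of the table in lambs too. NR5A1 stood at percentile 0.0681 and 0.121 of the promoters in the fetal libraries and at 1.46 and 2.92 in the lamb libraries. Its value was 0.157 and 0.136 times the library's median promoter in fetuses and 0.337 and 0.385 times it in lambs. The fetal deposited values, 35.5 and 25.7, lay below the lowest value by which any promoter entered the table, and the lamb values, 56.5 and 67.2, lay above it. NR5A1 was therefore one of 39 promoters (0.295% of the table) whose fetal values were both under that minimum, of which 9 were called higher (23.1%) and 0 lower. A promoter listed in this way is higher in at least 1 lamb by construction.

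H3K27ac at STAR was at a middling level and did not pass the test. The values were 211 and 198 in fetuses and 211 and 238 in lambs, from 350 to 498 reads per library. Fetus 1 and lamb 1 were nearly equal, and lamb 2 was the highest. The mean was 204 ± 8.89 in fetuses and 225 ± 18.8 in lambs (log2 difference 0.13, 95% interval -0.17 to 0.44, limma adjusted p = 0.507). The promoter stood at percentile 53.5 to 70.6 in the 4 libraries and at 60.1 by its mean. On the deposited scaling, with no further factor, the difference turned to -0.19.

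Of the 2 genes listed for H3K27ac, 1 was called higher and 0 lower, where 11.4% of all 13222 promoters were called higher and 17.7% lower (29.1% in either direction). The called gene is NR5A1, so nothing is read from this count. Lamb values lay above fetal values without overlap at both genes, as at 33% of all promoters, while 33.5% lay below. Calls depended on the level: with promoters split into 4 equal groups by mean level, the lowest group, which holds NR5A1, had 15.9% called higher and 2.27% lower, with a median change of 0.27. In the group of the third level, which holds STAR, 10.3% were called higher and 16.3% lower, with a median of -0.02. The call at NR5A1 was lost without lamb 1 (log2 change 1.41, limma adjusted p = 0.193), without lamb 2 (1.22, 0.268) and on the deposited scaling (1.00, 0.133). Its direction was the same in all 10 alternatives that gave a value. The listing through lamb values favours this direction, so it is no support.

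**Figure D2:**
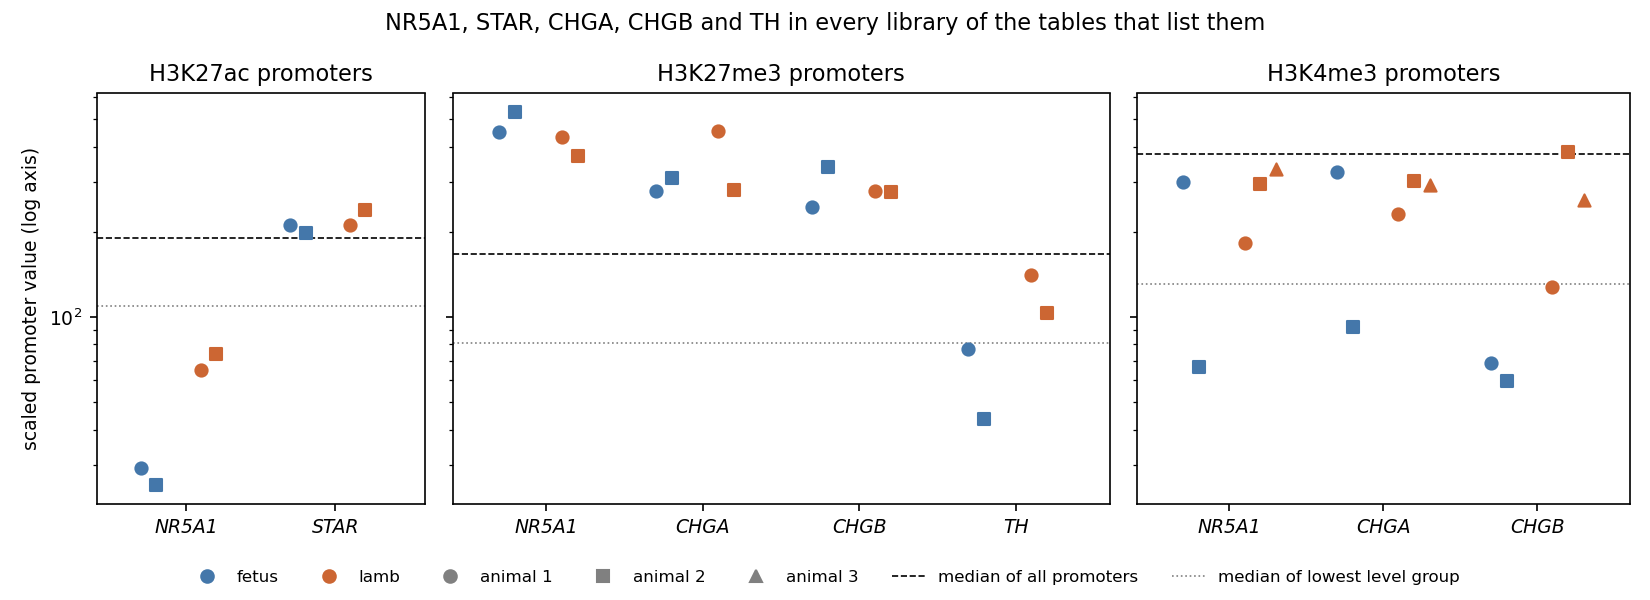
Scaled promoter value (log axis) of each gene in every library of the tables that list it, by mark, stage (colour) and animal (shape). Dashed and dotted lines give the median of all promoters and of the lowest of 4 level groups, averaged over libraries. NR5A1 lies below the dotted line for H3K27ac and far above the dashed line for H3K27me3, and fetus 2 lies apart from fetus 1 for H3K4me3 at NR5A1 and CHGA.

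H3K27me3 was high at NR5A1, CHGA and CHGB and low at TH. NR5A1 had 450 and 529 in fetuses and 432 and 371 in lambs, from 90 to 157 reads per library. Both lambs lay below both fetuses, and the promoter stood at percentile 88.2 to 92.2 in the 4 libraries. The mean was 489 ± 55.3 and 402 ± 43.4 (log2 difference -0.28, 95% interval -0.70 to 0.14, limma adjusted p = 0.351). NR5A1 was thus at percentile 0.582 of the 13222 promoters listed for the acetyl mark. It was at 90.9 of the 6334 listed for the trimethyl mark on the same residue. The tables hold different promoters, so these ranks do not share a scale.

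At CHGA, the H3K27me3 values were 279 and 310 in fetuses and 455 and 280 in lambs. Lamb 1 was the highest and lamb 2 lay between the fetuses. The mean was 294 ± 21.8 and 368 ± 124 (log2 difference 0.28, 95% interval -0.23 to 0.79, limma adjusted p = 0.462), and it turned to -0.08 without lamb 1. CHGB had 245 and 340 in fetuses and 278 and 276 in lambs. The lambs lay between the fetuses, and the mean was 293 ± 66.9 and 277 ± 1.60 (log2 difference -0.06, 95% interval -0.57 to 0.45, limma adjusted p = 0.893). These chromogranin values came from 67 to 139 reads per library.

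At TH the H3K27me3 values were 77.3 and 43.8 in fetuses and 141 and 103 in lambs, so both lambs lay above both fetuses. The reads were few, with 23 and 13 in fetuses (95% Poisson intervals 14.6 to 34.5 and 6.92 to 22.2) and 43 and 25 in lambs (31.1 to 57.9 and 16.2 to 36.9). The intervals of fetus 1 and the lambs overlapped. The mean was 60.5 ± 23.7 and 122 ± 26.7, a log2 difference of 1.04 (95% interval 0.12 to 1.95) that missed the threshold (limma adjusted p = 0.119, range over the alternatives 0.0635 to 0.667). The difference was 0.63 without fetus 2 and 1.42 without fetus 1. In the authors' deposited table TH had a signed fold change of 2.016 and an FDR-corrected p of 0.135.

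Ordered by mean percentile of H3K27me3, NR5A1 (90.9) was followed by CHGA (82.1), CHGB (77.8) and TH (13.5). The ranges over libraries overlapped between NR5A1 (371 to 529) and CHGA (279 to 455), and between CHGA and CHGB (245 to 340). TH (43.8 to 141) lay below all libraries of the other genes. No source used here gives the width of the promoter window, so levels of different genes are set side by side by percentile.

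With limma 0 of the 4 listed genes were called in the H3K27me3 table, where 13.2% of all 6334 promoters were called (4.42% higher and 8.83% lower). At an unadjusted p under 0.05 there was 1, TH, where 30.2% of all promoters passed (13.4% higher and 16.8% lower). Of the 4, 0 had an FDR-corrected p under 0.05 in the authors' deposited table, against 15.7% of all promoters. Lamb values lay below fetal values without overlap at NR5A1, as at 29.3% of promoters, and above them at TH, as at 30.5%. The highest of 4 level groups, with NR5A1, CHGA and CHGB, had a median change of -0.37 and 26.3% of its promoters called lower. The lowest group, with TH, had a median of 0.21 and 3.47% called higher. The difference of each of the 4 genes lay above the median of its level group.

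H3K4me3 at NR5A1 and CHGA differed more between the 2 fetuses than between stages. NR5A1 had 300 in fetus 1 and 66.6 in fetus 2, against 183, 295 and 334 in lambs 1 to 3. The mean was 183 ± 165 in fetuses and 271 ± 78.2 in lambs (log2 difference 0.88, 95% interval 0.01 to 1.76, limma adjusted p = 0.138). CHGA had 326 in fetus 1 and 92.2 in fetus 2, against 232, 302 and 292 in lambs. The mean was 209 ± 165 and 275 ± 37.5 (log2 difference 0.65, 95% interval -0.14 to 1.45, limma adjusted p = 0.217). At both genes fetus 2 lay below all lambs and fetus 1 did not. The reads per library ran from 122 to 556 at NR5A1 and from 125 to 605 at CHGA.

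The choice of fetus therefore set the outcome. Without fetus 1, with the single remaining fetus assumed to vary like the lambs, the log2 changes were 1.96 at NR5A1 (limma adjusted p = 0.000348) and 1.56 at CHGA (0.00201). Without fetus 2 they were -0.19 (0.785) and -0.25 (0.698). On the deposited scaling, on which the median of all H3K4me3 promoters was -1.28, they were -0.40 (0.395) and -0.63 (0.18).

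H3K4me3 at CHGB was higher in lambs. The values were 69.0 and 59.3 in fetuses and 128, 384 and 259 in lambs 1 to 3, from 111 to 213 reads per library. All lambs lay above both fetuses, and lamb 1 was the lowest of them. The mean went from 64.1 ± 6.81 to 257 ± 128, a log2 change of 1.85 (SE 0.49, 95% interval 0.87 to 2.84, limma adjusted p = 0.0181). In the authors' deposited table CHGB had a signed fold change of 3.980 and an FDR-corrected p of 0.00977. The promoter stood at percentile 8.83 and 11.8 in the fetal libraries and at 16.0, 49.3 and 28.9 in the lamb libraries.

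The value of CHGB moved with a feature of the libraries as a whole. The median of the lowest of 4 level groups of H3K4me3 promoters was 86.2 and 63.8 in fetuses and 114, 212 and 177 in lambs, in the same order of libraries as CHGB, and lambs 2 and 3 were the shallow libraries. The part of this in the difference was not tested. The call at CHGB was lost without lamb 2 (log2 change 1.50, limma adjusted p = 0.281), without lamb 3 (1.78, 0.406), without both (1.01, 1) and on the deposited scaling (0.58, 0.178). The change remained positive in all 13 alternatives, which refit the same libraries and are no independent support.

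Of the 3 genes listed for H3K4me3, 1 was called higher and 0 lower, where 8.33% of all 12922 promoters were called higher and 1.9% lower (10.2% in either direction). Lamb values lay above fetal values without overlap at CHGB, as at 25.7% of promoters, while 22.8% lay below. In the lowest level group, which holds CHGB, the median change was 1.09, and 15.9% were called higher and 0.031% lower. In the second level group, which holds NR5A1 and CHGA, the median was 0.39, and 15.3% were called higher and 0.402% lower. By mean percentile CHGA (34.6) and NR5A1 (32.8) were close, with overlapping values, and CHGB (22.5) overlapped both.

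**Figure D3:**
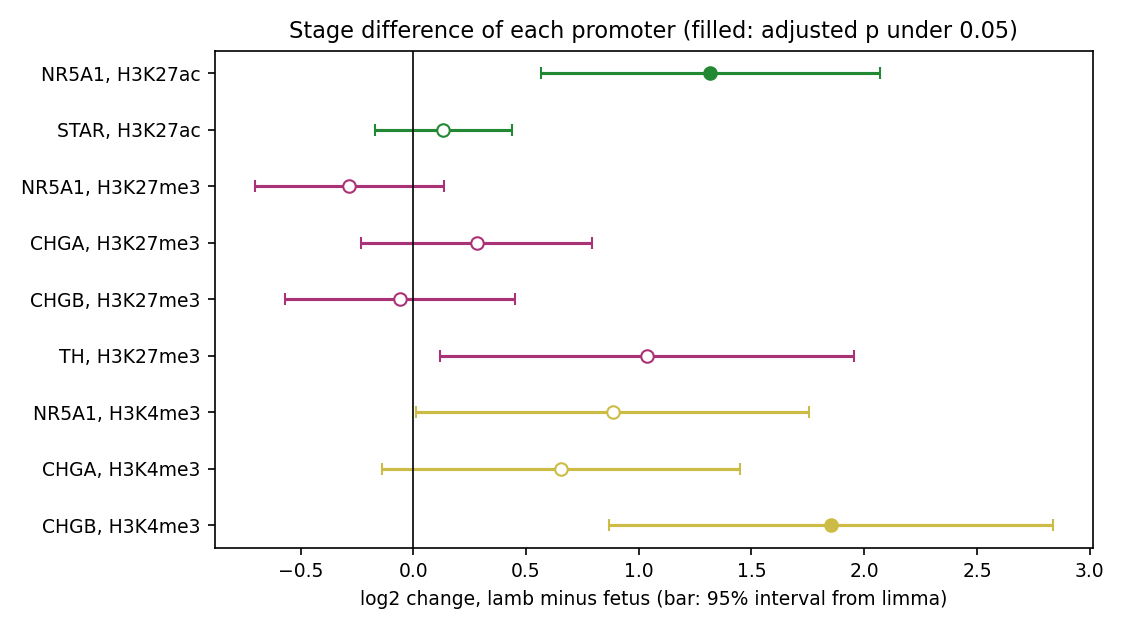
Log2 change, lamb minus fetus, of each listed promoter by mark, with its 95% interval from limma. Filled points, NR5A1 for H3K27ac (1.32) and CHGB for H3K4me3 (1.85), had an adjusted p under 0.05, the former at a promoter listed only through its lamb values. The other intervals reach across 0, except those of TH for H3K27me3 (0.12 to 1.95) and NR5A1 for H3K4me3 (0.01 to 1.76).

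The difference between the fetuses at NR5A1 and CHGA was then set against all H3K4me3 promoters, a description added after the values were seen. Fetus 1 minus fetus 2 was 2.15 on the log2 scale at NR5A1 (percentile 99.4 of all promoters), 1.81 at CHGA (98.4) and 0.21 at CHGB (61.3). The median over all 12922 promoters was -0.02, and 11.7% exceeded 1. Over the 3522 promoters that the H3K27me3 table also lists the median was 0.60, and 28.4% exceeded 1. Over the 1277 of these in the highest H3K27me3 level group it was 0.95, and 46.3% exceeded 1, while over the 9400 promoters not in the H3K27me3 table it was -0.19, and 5.41% exceeded 1. NR5A1 and CHGA thus lay above the median of the highest H3K27me3 level group, and CHGB, of the same group, lay below it.

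**Figure D4:**
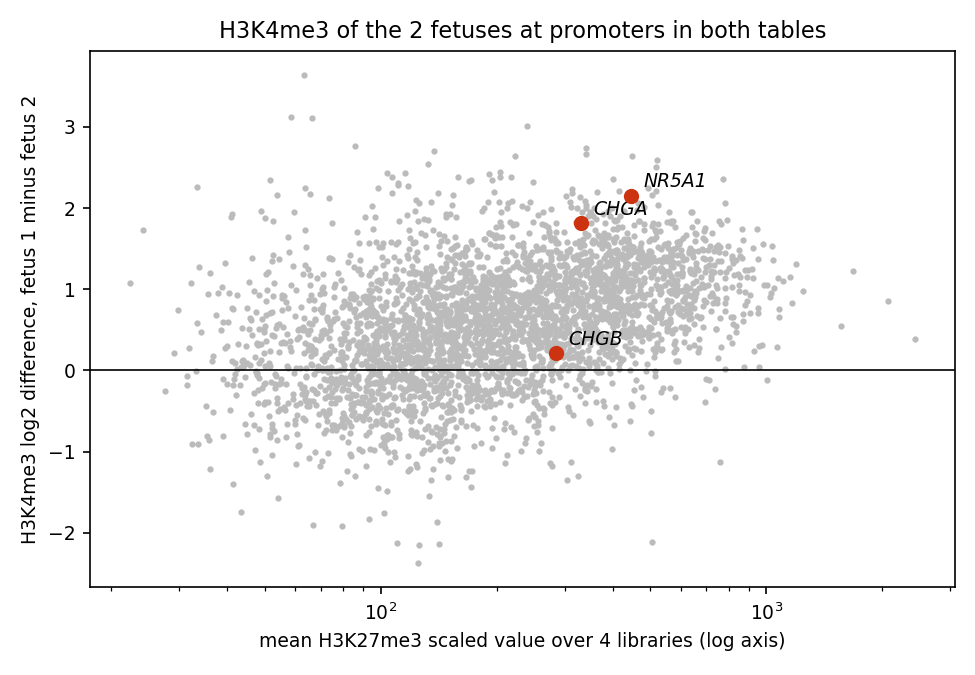
H3K4me3 log2 difference, fetus 1 minus fetus 2, against the mean H3K27me3 scaled value (log axis) at promoters found in both tables (grey points), with NR5A1, CHGA and CHGB in red. The cloud lies higher at high H3K27me3, and NR5A1 (2.15) and CHGA (1.81) lie near its upper edge.

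Other genes of the steroid pathway were followed through a list of 38 symbols, of which 21 were found in a table. The cholesterol side-chain cleavage enzyme CYP11A1, the corticotropin receptor's accessory protein MRAP and the sulfotransferase SULT2A1 were listed for H3K27me3 alone. The nuclear receptor NR0B1 was listed for H3K4me3 alone. Not listed in any table were the later enzymes of the cortex CYP11B1, CYP11B2, CYP21A2 and HSD3B1 and the corticotropin receptor MC2R. They were among 17 of the 38 symbols in no table, which also included POR, CYB5A, SOAT1, STARD3 and TSPO. The alternative symbols CYP21 and HSD3B were not listed either. Whether gene naming accounts for such absences was not tested. CYP17A1, the enzyme at the branch to cortisol and androgens, had high H3K27ac in every library, with 362 and 372 in fetuses and 384 and 368 in lambs. That is percentile 94.3 by its mean, and the stages overlapped (log2 difference 0.04, limma adjusted p = 0.847).

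For H3K27ac, 16 of the 38 steroid genes were listed, at a median percentile of 54.6. Of these 1 was called higher and 3 lower in lambs, and their median change was -0.05 against 0.02 over all promoters. On the deposited scaling 0 were higher and 6 lower, where 167 of all 13222 promoters were higher and 4012 lower. The transcriptional regulator CITED2 fell from 431 ± 71.2 to 218 ± 2.90 (log2 change -0.97, limma adjusted p = 9.1e-05) and stood at percentile 88.8. The zinc finger factor GATA6 was called lower too (-0.58, 0.0175), but not without fetus 1 (-0.32, 0.0832), lamb 1 (-0.62, 0.0835) or lamb 2 (-0.54, 0.113). Over all promoters 11.4% were called higher and 17.7% lower. Another of the 4 highest, the orphan receptor NR4A1, had a difference of -0.19 (0.346). CITED2 and GATA6 are active in many tissues and do not mark steroid cells.

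For H3K27me3, 9 steroid genes were listed, with 0 higher, 2 lower and a median of 0.03 against 0.02 over all promoters. With unadjusted p under 0.05 there were 0 higher and 3 lower, against 13.4% and 16.8% of all promoters. The orphan receptor NR4A2 fell from 605 ± 29.3 to 209 ± 31.2 (log2 change -1.54, limma adjusted p = 0.000291). GATA4, a factor of heart, gonad and fetal adrenal, fell from 923 ± 74.8 to 429 ± 87.4 (-1.12, 0.000945). WT1 (0.03, 0.947) and NR5A2, the receptor closest to NR5A1 (-0.61, 0.0737), were the next highest and did not pass. Over all promoters 4.42% were called higher and 8.83% lower. Without lamb 2 of H3K27me3 the lower calls of both adrenal lists were lost. Counts over all promoters also moved when single libraries were left out.

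For H3K4me3, 15 steroid genes were listed, and limma called 0 higher and 0 lower (at an unadjusted p under 0.05, 1 higher and 2 lower, where 21.1% and 13.9% of all promoters passed). The median was -0.10 against 0.00 over all promoters. Among the highest were CITED2 (percentile 99.6), GATA6 (95.7) and NR5A2 (76). Leaving out fetus 1 gave calls in both directions. Counts over all promoters also moved when single libraries were left out.

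Chromaffin genes were followed through a list of 39 further symbols, of which 33 were found. The dopamine and noradrenaline converting enzymes DBH and PNMT, the vesicular amine transporter SLC18A1, the growth factor receptor RET and the granule proteins SCG2, PCSK2 and PENK were, like TH, listed for H3K27me3 alone, as was SNAP25. The decarboxylase DDC and the factor GATA2 were among 6 symbols in no table. By this choice none of these genes was in the H3K27ac table, which held 9 others of the list.

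For H3K27ac, 9 chromaffin genes were listed, at a median percentile of 20.5, with a highest of 44.9 at the factor GATA3. Of these 3 were called higher and 1 lower in lambs, where 11.4% and 17.7% of all promoters were. The median change was 0.43 against 0.02 over all promoters. In the lowest level group 15.9% were called higher, with a median of 0.27. PHOX2A, a homeodomain factor of noradrenergic neurons, rose from 73.6 ± 7.23 to 134 ± 15.2 (log2 change 0.85, limma adjusted p = 0.0115). The granule chaperone SCG5 rose from 132 ± 3.70 to 210 ± 10.4 (0.67, 0.00628), and the nicotinic receptor subunit CHRNB4 rose too (0.55, 0.0375). The monoamine oxidase MAOA, which breaks catecholamines down, fell (-0.47, 0.0496). That call was lost with column totals alone (-0.375, 0.105) and with size factors from median ratios (-0.461, 0.0525). It was also lost at a mean of at least 50 (0.0501). The calls were lost without lamb 1 or without lamb 2, and counts over all promoters also moved when single libraries were left out. On the deposited scaling 0 were higher, where 167 of all 13222 promoters were.

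For H3K27me3, 29 chromaffin genes were listed, at a median percentile of 79.5. Of these 0 were called higher and 5 lower, where 8.83% of all promoters and 26.3% of the highest level group were lower. The median was -0.32 against 0.02 over all promoters and -0.37 in that group. At an unadjusted p under 0.05 there were 3 higher and 11 lower, against 13.4% and 16.8% of all promoters. TFAP2B, a neural crest factor, fell from 1310 ± 180 to 611 ± 192 (log2 change -1.13, limma adjusted p = 0.000944) and stood at percentile 99.6. ISL1 (-0.75, 0.00811), the nicotinic receptor subunit CHRNA3 (-0.83, 0.00929), HAND2 (-0.74, 0.0297) and GATA3 (-0.63, 0.0302) fell as well. HAND1 (-0.50, 0.0528) and PHOX2A (-0.38, 0.127) were as high and did not pass. With column totals alone the counts were 1 higher and 3 lower, where 435 of all 6334 promoters were higher and 368 lower. The number lower also moved when single libraries were left out, as it did over all promoters, and the calls were lost without lamb 2.

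For H3K4me3, 25 chromaffin genes were listed, at a median percentile of 37.8. Of these 4 were called higher and 0 lower. Over all promoters 8.33% were called higher, and 15.9% and 15.3% in the lowest and second level groups. The median was 0.56 against 0.00 over all promoters and 1.09 and 0.39 in those groups. On the deposited scaling 0 were higher and 7 lower, where 55 of all 12922 promoters were higher and 5623 lower. The prohormone convertase PCSK1 went from 121 ± 43.9 to 374 ± 171 (log2 change 1.56, limma adjusted p = 0.0111), with lambs at 213, 553 and 357. The exocytosis factor CADPS (1.20, 0.0425), PHOX2A (1.07, 0.037) and the neuropeptide NPY (1.69, 0.0307) were called too, although fetal and lamb values overlapped at PHOX2A and NPY. At PCSK1, CADPS, PHOX2A, NPY and S100B, a Schwann cell gene, the shallow lambs 2 and 3 were the highest libraries, as at CHGB. The calls were lost without lamb 2, without lamb 3 and without both, and their number moved when either fetus was left out. Counts over all promoters also moved when single libraries were left out. Without fetus 2 the changes at PHOX2A (0.46), NPY (0.92) and CADPS (0.79) were smaller by over 1.5 times. ISL1 (percentile 85.3), MAOA (74.9), GATA3 (61.5) and HAND2 (52.4) were the highest of the list and did not pass.

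**Figure D5:**
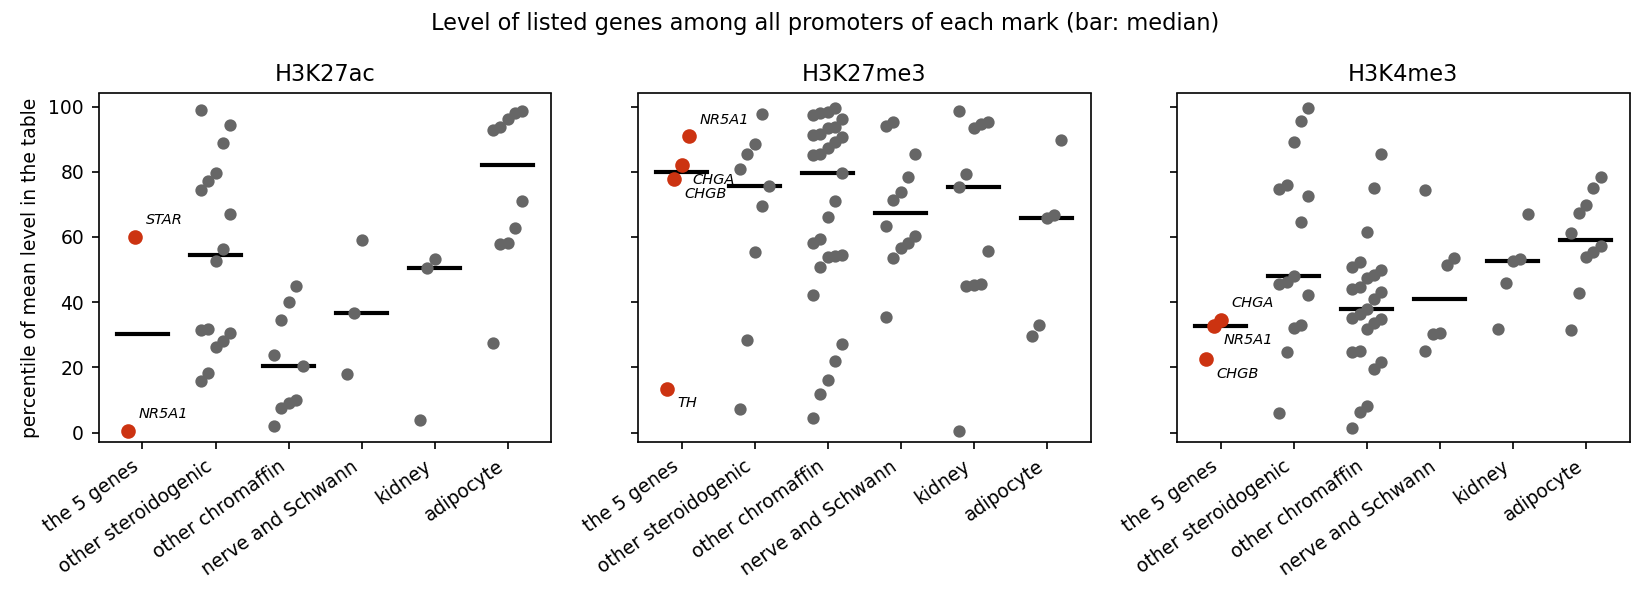
Percentile of the mean level among all promoters of a mark for the 5 genes (red) and the lists of other genes (grey), with the median of each as a bar. For H3K27ac the other chromaffin genes lie low (median 20.5) and the adipocyte genes high (median 82). For H3K27me3 the chromaffin genes lie high (median 79.5), as do the steroidogenic (75.7) and kidney (75.2) genes. The nerve and Schwann (67.4) and adipocyte (65.7) medians for that mark are somewhat lower.

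Marker lists of other cell types were set beside these. Of 12 adipocyte genes, which are genes of the labelled tissue, 10 were in the H3K27ac table, at a median percentile of 82. FABP4, PLIN1, PPARGC1A and ADIPOQ were the highest (percentiles 98.6, 98, 93.6 and 96.1). DIO2 (62.9), CEBPA (58.2), UCP1 (57.8) and CIDEA (27.5) were the lowest. Of the 10, 7 were called lower, where 17.7% of all promoters and 46.4% of the highest level group were. The H3K27me3 table held 5 of the adipocyte genes, at a median percentile of 65.7. Among them UCP1 stood at percentile 89.6, close to NR5A1 (90.9). PPARG and LIPE were not listed in any table. The summed H3K27ac of the 10 listed genes was 3518 and 4004 in fetuses and 2342 to 2391 in lambs. Of 18 nerve and Schwann genes 3 were in the H3K27ac table, with the nerve growth factor receptor NGFR called higher (log2 change 0.49, limma adjusted p = 0.0309), but not without lamb 1 (0.28, 0.601) or on the deposited scaling (0.17, 0.6). Their summed H3K27ac was 442.7 to 448.8 in fetuses and 526.2 to 599.4 in lambs, and the Schwann cell factor SOX10 and the neuronal genes STMN2 and ELAVL4 were listed for H3K27me3 alone. For H3K4me3, S100B was called higher (1.71, 0.00984), but not without lamb 2 (1.47, 0.206) or lamb 3 (1.64, 0.361), and on the deposited scaling it had 0.43 (0.337). For H3K27me3, 3 of 12 nerve genes were lower, where 8.83% of all promoters and 26.3% of the highest level group were. Of 16 kidney genes 3 were in the H3K27ac table, with SLC12A3 (0.55, 0.0124) and SIX2 (0.94, 0.0166) called higher and a summed level of 379.3 to 420.6 in fetuses and 534 to 546.4 in lambs, while the podocyte gene NPHS1 was listed for H3K27me3 alone. Both kidney calls were lost on the deposited scaling (0.23, 0.458 at SLC12A3 and 0.62, 0.134 at SIX2), without lamb 1 (0.319 and 0.18) and without lamb 2 (0.0952 and 0.369). The summed H3K27ac of the 9 chromaffin genes was 1020 to 1070 in fetuses and 1262 to 1286 in lambs. That of the 16 listed steroid genes went the other way, from 3785 to 4006 in fetuses to 3283 to 3461 in lambs. Over all H3K27ac promoters 11.4% were called higher. From the lowest to the highest of the 4 level groups the shares were 15.9%, 16.8%, 10.3% and 2.66%. The median changes of these groups were 0.27, 0.15, -0.02 and -0.32. The part of level in these sums and calls was not tested. The part of other cell types in the differences at NR5A1 and CHGB was not tested.

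Neighbouring genes, taken in their order in the RefSeq annotation of the ARS-UI_Ramb_v3.0 assembly, were looked at after the values were seen. STAR lies between ASH2L and LSM1, both of which were listed for H3K27ac and H3K4me3. H3K27ac at LSM1 fell from 383 to 277 (log2 change -0.47, limma adjusted p = 0.00826, but 0.122 without lamb 1 and 0.0539 without lamb 2), while ASH2L had 253 and 210 (-0.28, 0.149). The difference between STAR and its neighbours was not tested. ADRB3, the adrenergic receptor of fat cells, is the third gene before STAR and fell from 243 to 157 (-0.64, 0.00847, but -0.43, 0.221 without lamb 2).

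NR5A1 lies beside NR6A1, another orphan receptor, which was listed for H3K27me3 alone at percentile 30.7, and OLFML2A beyond it stood at percentile 81.4. On the other side of NR5A1, ADGRD2 was not listed and PSMB7, a proteasome subunit, stood at percentile 38.3 of H3K27me3. TH lies between TSPAN32 and INS, which was not listed. H3K27me3 at TSPAN32 was low, like that of TH, with 40.4 in fetuses and 102 in lambs (log2 difference 1.40, limma adjusted p = 0.0736), and IGF2 beyond INS had 47.1 and 73.9 (0.65, 0.417). The genes next to CHGA, GOLGA5 and ITPK1, and TRMT6 next to CHGB were listed for H3K27ac and not for H3K27me3.

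Promoters most like each gene were found by the smallest root mean square difference in log2(value + 1) over all libraries of its tables, as a description. For NR5A1 these were LHX9 (0.33), CACNA1D (0.43) and CACNG6 (0.44) over 13 libraries, among 1908 promoters with a median of 1.64. CHGA was most like NRG2 (0.18), KCNN1 (0.20) and RNF207 (0.22) over 9 libraries, among 3521 with a median of 1.11. CHGB was most like CA13 (0.20), GPX6 (0.21) and a copy of the U6 RNA gene (0.22), with a median of 1.27. Over 4 libraries only, STAR was most like C2orf49 (0.04), a gene with no name in the table and PAQR3 (0.04), with a median of 0.52. TH was most like FAM69C (0.13) and then a pair of genes with no name, with a median of 1.22.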

How the data were processed

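The members and gene lists were chosen with earlier results of these data known. Native chromatin was cut with micrococcal nuclease and sequenced as single-end 50 bp reads, which were mapped to Oar_v3.1 with CLC Genomics Workbench 7.0, per the labels. Further tools (MACS, bedtools 2.19.0, edgeR) appear in the submitters' processing notes with no role stated. The promoter values the authors deposited are a signal: reads times 1 factor per library, whose basis no source used here gives. Dividing by that step gave whole reads (within 0.02 reads) for at least 99.98% of values, with 324662 to 17541582 promoter reads per library. The deposited peak tables hold raw read counts per region, used here for depth only, since their regions carry no gene names. The authors' signed fold change (a score) and FDR-corrected p-value are headed EDGE test, per the file headers. For H3K27me3 promoters those of fold change and p-value stand over each other's values, and a blank line was left out. The pooled input libraries, 2 in all, have no values in the tables.

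Each library's values were divided by column total times TMM factor (edgeR 4.0.16), relative to the mean over libraries. They were transformed as log2(value + 1) and fitted with limma's trend method (limma 3.58.1, R 4.3.3), lamb minus fetus, two-sided, Benjamini-Hochberg within each table, after the scripts were tested on simulated data. An exact permutation test of 1 promoter could not go below p = 0.333 (2 against 2) or 0.2 (2 against 3), so none is given. Named genes are the 5 genes, up to 8 called genes and the 4 highest of each adrenal list per mark, and up to 4 of each other list, a few of which are not reported here. Alternatives were other scalings, pseudocounts of 0.5 and 5, a mean of at least 50, a replicate block and each library left out.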

Additional observations from a re-analysis of the deposited data

How the results depend on the processing

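Scaling and single libraries moved the counts of calls. With column totals alone the counts were 2314 higher for H3K27ac and 435 higher and 368 lower for H3K27me3. On the deposited scaling they were 167 higher and 4012 lower for H3K27ac, 134 higher for H3K27me3, and 55 higher and 5623 lower for H3K4me3, with medians over all promoters of -0.30, -0.06 and -1.28. Leaving out 1 library at a time gave 142 to 2839 higher and 1035 to 3014 lower for H3K27ac, 0 to 520 and 0 to 885 for H3K27me3, and 8 to 2730 and 4 to 2950 for H3K4me3, and leaving out lambs 2 and 3 of H3K4me3 gave 0 and 0. A lone library of a stage is then assumed to vary like the other stage. On the deposited scaling the change reversed for H3K27ac at STAR (-0.19) and for H3K4me3 at CHGA (-0.63), NR5A1 (-0.40), PHOX2A (-0.21) and CADPS (-0.079). H3K27me3 at CHGB reversed with column totals (0.054) and without fetus 2 (0.18), and kept its direction at -0.313 without fetus 1. H3K27me3 at CHGA reversed without lamb 1 (-0.078), and the range over libraries left out was up to 0.63. H3K4me3 at CHGA (-0.25) and NR5A1 (-0.19) reversed without fetus 2, against 1.557 and 1.958 without fetus 1. The cause was not tested. Under all alternatives together, the values of the 5 genes kept their direction in 20 of 21 cases for H3K27ac, 41 of 44 for H3K27me3 and 35 of 39 for H3K4me3. The alternatives refit the same libraries, and the filter on the mean leaves each change as it was. These counts are therefore no independent support. Of the H3K27ac cases 10 are those of NR5A1, whose listing through lamb values favours their direction. H3K27ac at NR5A1 has no value at a mean of at least 50, since its mean is below it. The planned edgeR count test on promoter reads was not run, since the deposited values did not qualify as counts. Libraries with the same replicate number come from a different animal in each stage and share only that number: deviations of same-numbered libraries correlated at 0.277 for H3K27ac, 0.0988 for H3K27me3, and -0.412 and -0.346 for H3K4me3. With the replicate block there were 2343 higher for H3K27ac, 506 higher for H3K27me3, and 3 higher and 0 lower for H3K4me3, where CHGB had 1.78 (limma adjusted p = 0.81). The block took only libraries numbered 1 and 2, so lamb 3 of H3K4me3 was left out and its absence cannot be told apart from blocking.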

Other observations

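Among the steroid genes CYP17A1 was singled out after its values were seen. Its promoter was in the highest of 4 level groups of H3K27ac and in neither of the other tables. Of the 3312 genes in that group, 149 (4.5%) were not in the H3K4me3 table, against 685 of 3305 (20.7%) in the third group, where STAR stood with the same listing, and 34.6% in the lowest. WBP1L, 2 genes from CYP17A1 in the RefSeq order, had a similar H3K27ac level of 362 in fetuses and 350 in lambs. In the RefSeq table CYP17A1 has a direct neighbour named CYP17, which was not listed in any table.

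H3K27me3 at UCHL1, which encodes a protein abundant in neurons, fell from 676 ± 37.2 to 355 ± 98.7 (log2 change -0.96, limma adjusted p = 0.00555). The neural crest factor FOXD3 fell too (-0.63, 0.0288). Among kidney genes H3K27me3 fell at SIM1 (-0.97, 0.00112). All 3 calls were lost without lamb 2 (adjusted p = 0.135 each), those at UCHL1 and FOXD3 also without fetus 1 (0.0873 and 0.199), and all 3 without fetus 2 (0.0643, 0.373 and 0.0809). The call at FOXD3 was also lost with column totals alone (0.0668) and on the deposited scaling (0.0772). In the highest level group of H3K27me3 promoters 26.3% were called lower.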
